A study of Mus musculus with 12 samples.

Results

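The 7 genes Klrd1, Klrk1, Klrg1, Klrc1, Nkg7, Crtam and Cd7 encode surface receptors and a granule protein best known from natural killer (NK) cells. They were followed in donor CD4+ T cells during an early graft-versus-host response. The members were listed by name, and each was read from its single-symbol probe set with the highest mean, which left 7 of the 19938 genes of the table. Cd7 was put on the list because it was higher with Cl-BBQ, so its values below are a description without a test. The other 6 genes were taken as NK-type genes.

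The samples were 12 arrays of C57Bl/6 donor CD4+ T cells sorted after transfer into B6D2F1 hosts, and the sort kept cells whose CFSE dye showed 2 or more divisions. The cells came from spleen and lymph node on day 2 (48 hours), with mice of 10 to 12 weeks. The 4 TCDD hosts received 15 µg/kg on day 0, the 4 Cl-BBQ hosts 2 mg/kg on days 0 and 1, and the 4 vehicle hosts vehicle on days 0 and 1. TCDD is a persistent dioxin and Cl-BBQ a second ligand of AhR, the aryl hydrocarbon receptor, which turns on genes once a small molecule binds it. The schedules differed, so TCDD and vehicle hosts also differ in the number of injections, and the ligands were not compared at a matched dose. The cells were sorted by magnetic beads and flow cytometry, and the host, not the sorted cell, received the ligand. Replicates are named as biological replicates in the labels, and whether any array pooled animals is not given in the sources used here. By its probe table the array is a whole-transcript design, while the labels describe oligo-dT primed labelling with a kit of the 3′ arrays, and which of these applied was not settled. Array medians ran from 7.11 to 7.24 log2 units, and arrays correlated at 0.988 to 0.995 across probe sets.

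NK cells and some T cells share a set of receptors that weigh signals for and against killing. Klrd1 encodes CD94, the common chain that pairs with NKG2 proteins, and Klrc1 encodes NKG2A, its inhibitory partner, which reads the non-classical MHC molecule Qa-1. Klrk1 encodes NKG2D, an activating receptor for stress-induced ligands that signals through the adaptor DAP10. Klrg1 encodes an inhibitory receptor for cadherins that marks far-differentiated effector cells. Nkg7 encodes a membrane protein of cytotoxic granules, Crtam an adhesion receptor of the immunoglobulin family found on activated cytotoxic cells, and Cd7 an immunoglobulin-family receptor of T and NK cells.

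In the mouse RefSeq annotation (GRCm38.p6) Klrd1, Klrk1, Klrc1 and Klrg1 lie on chromosome 6, Nkg7 on chromosome 7, Crtam on chromosome 9 and Cd7 on chromosome 11. Klrd1 and Klrk1 are direct protein-coding neighbours, with Klrc1 4 protein-coding genes from Klrd1 and Klrg1 134 genes away. RefSeq promoter windows (250 bases before to 50 bases after the gene start) were at hand for 3 members, Klrk1, Klrc1 and Nkg7. Those of Nkg7 and Klrk1 are shown because Nkg7 was the NK-type gene with the largest measured difference from vehicle and Klrk1 the chromosome 6 receptor with a window next to Klrd1. The Nkg7 window is chr7:43436888-43437187 on the plus strand and the Klrk1 window chr6:129623815-129624114 on the minus strand of GRCm38.p6, each spanning upstream sequence and the first transcribed bases. Capitals mark TGTGGT or its reverse complement ACCACA, the core read by RUNX factors.
Nkg7: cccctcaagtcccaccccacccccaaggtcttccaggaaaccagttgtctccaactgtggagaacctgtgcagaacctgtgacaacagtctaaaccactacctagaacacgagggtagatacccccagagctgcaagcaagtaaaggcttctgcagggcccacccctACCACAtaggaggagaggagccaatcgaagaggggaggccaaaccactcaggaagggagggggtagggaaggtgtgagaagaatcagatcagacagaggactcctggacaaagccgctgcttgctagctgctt
Klrk1: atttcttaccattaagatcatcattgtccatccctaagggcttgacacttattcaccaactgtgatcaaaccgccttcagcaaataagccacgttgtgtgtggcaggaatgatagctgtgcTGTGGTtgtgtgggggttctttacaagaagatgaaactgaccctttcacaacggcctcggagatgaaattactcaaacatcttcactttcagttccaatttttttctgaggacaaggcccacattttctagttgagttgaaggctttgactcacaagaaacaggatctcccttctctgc
The capitals begin 83 bases before the start in Nkg7 and 129 bases before it in Klrk1. The Klrc1 window holds the same letters once, 87 bases before its start. Over all 32851 windows of 300 bases, 16.8% held this motif on either strand. GCGTG, the core letters of AhR response elements, was searched on both strands too. It was in 0 of the 3 windows, so no overlap with the other motif arose, and in 32.4% of all windows. Both motifs were chosen with the expression values known, and a match or its absence describes these letters only.

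Cd7 was higher with both ligands. It measured 9.89, 10.23, 10.35 and 10.23 log2 units on the 4 TCDD arrays, 9.60, 10.33, 9.68 and 10.32 on the 4 Cl-BBQ arrays, and 9.21, 9.26, 8.84 and 8.74 on the 4 vehicle arrays. Every treated array lay above every vehicle array, and TCDD and Cl-BBQ arrays overlapped. The means were 10.17 ± 0.20 with TCDD, 9.98 ± 0.40 with Cl-BBQ and 9.01 ± 0.26 with vehicle (SD, n = 4 each). The log2 difference from vehicle was 1.16 with TCDD (2.24-fold) and 0.97 with Cl-BBQ (1.96-fold), and TCDD exceeded Cl-BBQ by 0.19, a value that was 0.065 without Cl-BBQ replicate 1 and 0.31 without Cl-BBQ replicate 2. Both comparisons share the vehicle arrays. Groups without overlap made up 5.8% of all genes for TCDD (3.15% with TCDD higher) and 3.85% for Cl-BBQ (2.27% with Cl-BBQ higher), and nothing is read from that for a gene chosen by its difference.

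The value that chose Cd7 was its call with Cl-BBQ, at an adjusted p under 0.05 in limma over all genes, a rule met by 0.196% of genes (0.145% higher). By size of the increase Cd7 stood at place 9 of 19938 genes with Cl-BBQ and at place 24 with TCDD. A high place with Cl-BBQ follows from the choice, and the place with TCDD rests on the same vehicle arrays, so nothing is read from either. The call with Cl-BBQ was absent under 9 of the 17 alternatives run. With an array left out, the log2 difference ranged from 0.85 without Cl-BBQ replicate 2 to 1.10 without Cl-BBQ replicate 1. With TCDD it ranged from 1.07 without vehicle replicate 4 to 1.26 without TCDD replicate 1. Within the Cl-BBQ group Cd7 fell into a high pair, replicates 2 and 4, and a low pair, replicates 1 and 3.

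**Figure D1:**
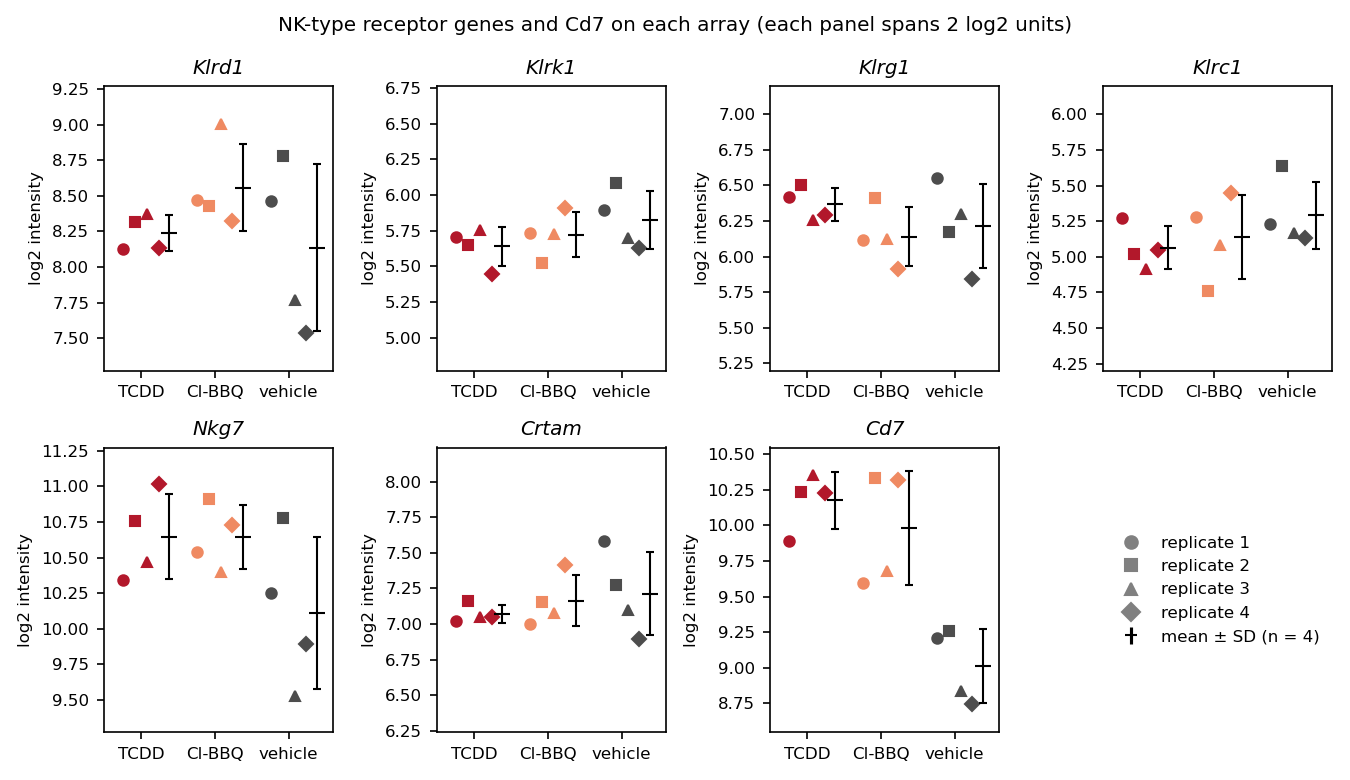
Log2 intensity of the 7 genes on each array, with 1 symbol per replicate number and the mean ± SD of 4 arrays beside the points; each panel spans 2 log2 units. All 8 treated arrays of Cd7 lie above its 4 vehicle arrays, and the groups overlap in the other 6 genes.

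Of the 6 NK-type genes, 0 were called with TCDD against vehicle, where 1.24% of all genes were called, and 0 with Cl-BBQ against vehicle, where 0.196% were. The limma test without adjustment passed its threshold of 0.05 for 1 of 6 in each comparison, Nkg7 both times, against 8.69% of all genes with TCDD (4.69% higher) and 7.91% with Cl-BBQ (4.11% higher). The median log2 difference of the 6 was −0.02 with TCDD and −0.06 with Cl-BBQ, beside 0.00 and 0.01 over all genes. Differences ran from −0.23 to 0.53 with TCDD and from −0.15 to 0.53 with Cl-BBQ. The 95% intervals of the 6 genes reached at most 0.97 in the higher direction and −0.51 in the lower. A 2-fold change in measured intensity thus lay outside every interval against vehicle. Klrk1, Klrg1 and Klrc1 were dim, as given below, so for them this says little about the transcripts. The groups overlapped in all 6 genes in each comparison. In order of group means Nkg7 ran TCDD, Cl-BBQ, vehicle, Klrg1 ran TCDD, vehicle, Cl-BBQ, and Crtam ran vehicle, Cl-BBQ, TCDD, and neighbours in these orders overlapped.

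Nkg7, the granule membrane protein, was the NK-type gene nearest to a change. It measured 10.34, 10.76, 10.47 and 11.02 log2 units with TCDD, 10.54, 10.91, 10.40 and 10.73 with Cl-BBQ, and 10.25, 10.78, 9.53 and 9.89 with vehicle. Vehicle replicate 2 lay among the treated arrays, and the other 3 vehicle arrays lay below all of them. The log2 difference from vehicle was 0.53 with TCDD (interval 0.10 to 0.97; unadjusted p = 0.0201, adjusted p = 0.413, limma) and 0.53 with Cl-BBQ (interval 0.09 to 0.97; unadjusted p = 0.0206, adjusted p = 0.527, limma). Both differences correspond to 1.45-fold, and the ligands differed from each other by 0.00 (interval −0.44 to 0.44). Without vehicle replicate 2 the differences were 0.76 (adjusted p = 0.0515) and 0.75 (adjusted p = 0.134), and without vehicle replicate 3 they were 0.34 in both comparisons. With an array left out, the limma adjusted p reached up to 0.76 with TCDD and 0.944 with Cl-BBQ.

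Klrd1, the CD94 chain, had the largest SD among vehicle arrays of the 7 members (0.58, with 0.53 for Nkg7). It measured 8.13, 8.32, 8.37 and 8.13 log2 units with TCDD, 8.47, 8.43, 9.01 and 8.32 with Cl-BBQ, and 8.46, 8.78, 7.77 and 7.54 with vehicle. The TCDD arrays lay close together between the high and the low vehicle pair, and Cl-BBQ replicate 3 was the highest of all 12 arrays. The log2 difference from vehicle was 0.10 with TCDD (interval −0.36 to 0.56; adjusted p = 0.96) and 0.42 with Cl-BBQ (interval −0.04 to 0.88; adjusted p = 0.661). With TCDD its sign turned to −0.02 without vehicle replicate 3 and to −0.10 without vehicle replicate 4. With Cl-BBQ it was 0.63 without vehicle replicate 2 and 0.22 without vehicle replicate 4. In order of group means Klrd1 ran Cl-BBQ, TCDD, vehicle, and no neighbours in that order differed beyond their spread.

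The partner chain Klrc1 and the activating receptor Klrk1 were dim: both means, and that of Klrg1, lay under the 30th percentile of gene means (6.51 log2 units), so 4 of the 7 members passed the filter on dim genes tried as an alternative. Klrc1 ranged from 4.92 to 5.27 with TCDD, from 4.76 to 5.45 with Cl-BBQ and from 5.13 to 5.64 with vehicle. Its log2 difference from vehicle was −0.23 with TCDD (interval −0.51 to 0.06) and −0.15 with Cl-BBQ (interval −0.43 to 0.14). With an array left out these ran from −0.30 to −0.11 with TCDD, nearest 0 without vehicle replicate 2, and from −0.25 to −0.022 with Cl-BBQ, nearest 0 without Cl-BBQ replicate 2. Klrc1 has close relatives in Klrc2 and Klrc3, and whether its probe set also reads their transcripts is not given in the sources used here. Klrk1 ranged from 5.45 to 5.76 with TCDD, from 5.52 to 5.91 with Cl-BBQ and from 5.63 to 6.08 with vehicle, and its log2 difference from vehicle was −0.19 with TCDD (interval −0.40 to 0.03) and −0.10 with Cl-BBQ (interval −0.32 to 0.11). Without vehicle replicate 2 the Klrk1 differences were −0.10 and −0.018, and without vehicle replicate 4 they were −0.25 and −0.17. Both genes had the order vehicle, Cl-BBQ, TCDD in their group means, with overlapping neighbours.

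Klrg1, the cadherin receptor, ranged from 6.25 to 6.50 with TCDD, from 5.91 to 6.41 with Cl-BBQ and from 5.84 to 6.55 with vehicle. It was the only NK-type gene with opposite signs against vehicle for the ligands, 0.15 with TCDD (interval −0.12 to 0.42) and −0.08 with Cl-BBQ (interval −0.34 to 0.19), and both intervals hold 0. Without vehicle replicate 1 the values were 0.26 and 0.035, and without vehicle replicate 4 they were 0.024 and −0.20. Crtam ranged from 7.02 to 7.16 with TCDD, from 7.00 to 7.41 with Cl-BBQ and from 6.89 to 7.58 with vehicle. Its log2 difference from vehicle was −0.14 with TCDD (interval −0.40 to 0.11) and −0.05 with Cl-BBQ (interval −0.30 to 0.20), and the Cl-BBQ value turned to 0.075 without vehicle replicate 1 and to 0.0047 without Cl-BBQ replicate 1. The TCDD value of Crtam was −0.018 without vehicle replicate 1 and −0.25 without vehicle replicate 4. The adjusted p of these 4 genes was between 0.678 and 0.943 in both comparisons.

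**Figure D2:**
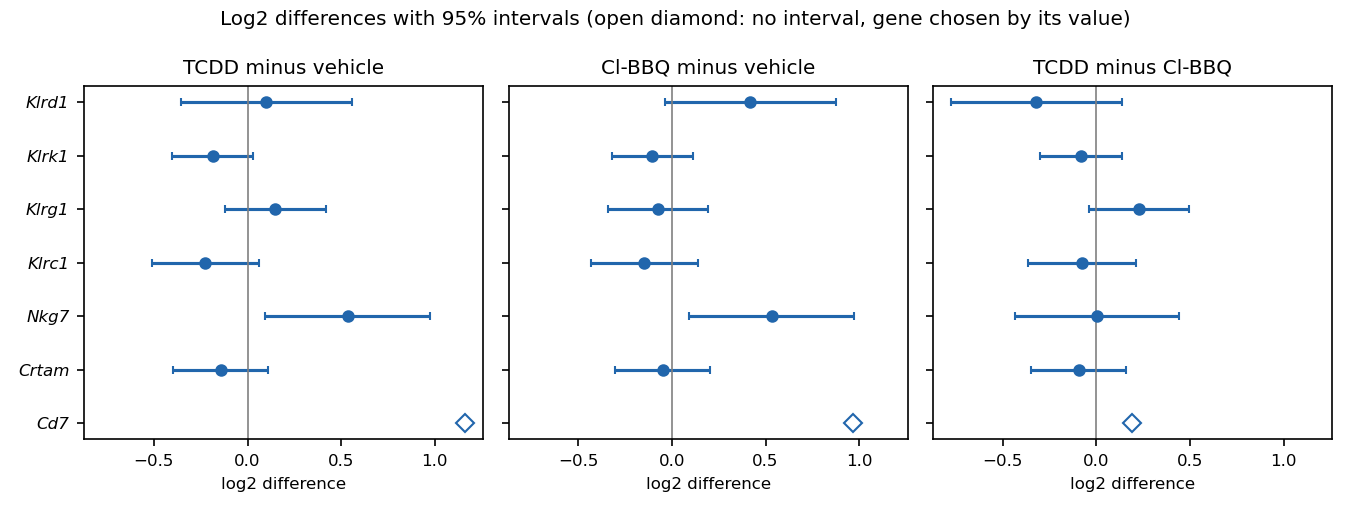
Log2 differences of the 7 genes in the 3 comparisons, TCDD minus vehicle, Cl-BBQ minus vehicle and TCDD minus Cl-BBQ, with 95% intervals from the limma fit for the 6 NK-type genes and an open diamond without interval for Cd7. The intervals of Nkg7 lie above 0 in both comparisons with vehicle and those of the other 5 cross 0.

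The direct comparison of TCDD with Cl-BBQ, each at its own dose and schedule, called 0 of the 6, where 0.015% of all genes were called, and 0 of 6 passed without adjustment against 2.99% of all genes (1.62% with TCDD higher). The groups overlapped in all 7 members, where 2.04% of all genes had groups without overlap (1.24% with TCDD higher). The log2 differences ran from −0.32 for Klrd1 (interval −0.78 to 0.14) to 0.23 for Klrg1 (interval −0.04 to 0.49), with an adjusted p of 1.00 for each gene. These intervals leave room for differences of up to about 0.78 log2 units in Klrd1 and do not show that the ligands act alike.

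The SD was largest among the vehicle arrays in 5 of the 7 members, against 32.3% of all genes, and among the Cl-BBQ arrays in Klrc1 (0.29, with 0.23 for vehicle) and Cd7 (0.40, with 0.26 for vehicle). Vehicle replicate 4 was the lowest vehicle array in 6 of the 7 members, all but Nkg7, where over all genes it was the lowest in 29.99%. Vehicle replicate 2 was the highest in 5 of 7, against 27.3% of all genes. The SD of the TCDD arrays was smaller than that of the vehicle arrays in all 7 members, as in 54.3% of all genes. For Klrd1 it was 0.13 with TCDD and 0.58 with vehicle, and for Crtam 0.06 with TCDD and 0.29 with vehicle. Gzma, a granule protease gene, also had its higher vehicle values in replicates 1 and 2 (7.96 and 8.30 log2 units) and its lower ones in replicates 3 and 4 (7.54 and 7.26).

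Vehicle replicate 2 stood apart in a marker of other cells. Cd8a, a CD8 T cell marker, measured 8.47 log2 units there and 6.96 to 7.03 on the other vehicle arrays, with 7.07 to 7.63 on TCDD arrays and 6.87 to 7.16 on Cl-BBQ arrays. Cd8b1, the other CD8 chain, was 9.57 to 9.88 with TCDD, 9.68 to 10.07 with Cl-BBQ and 9.73 to 10.13 with vehicle, with vehicle replicate 2 inside that range. The mean log2 level of 10 NK cell markers was 6.38 to 6.53 on TCDD arrays, 6.36 to 6.57 on Cl-BBQ arrays and 6.48 to 6.65 on vehicle arrays, highest in vehicle replicate 2. Single markers differed in this. Among vehicle arrays Tyrobp was highest in replicate 2 (7.58), Klrb1c in replicate 4 (7.53, with 7.18 in replicate 2) and Eomes in replicate 1 (8.11, with 7.93 in replicate 2). Of the 10 markers 5 (Ncr1, Klre1, Klra3, Klra8 and Fcer1g) were dim by the 30th percentile. With TCDD 0 of 10 were called higher and 1, Eomes, was called lower, a call lost in 4 of the 8 fits that leave out an array. Over all genes 1.24% were called with TCDD and 0.196% with Cl-BBQ. The marker counts below stand beside the same shares, so 0 calls in a list this short say little. The mean of 7 B cell markers was 6.70 to 6.84 with TCDD, 6.74 to 6.87 with Cl-BBQ and 6.83 to 7.12 with vehicle, again highest in vehicle replicate 2. Cd22 itself was highest in vehicle replicate 4 (8.52, with 8.26 in replicate 2). Of the 7, 2 fell with TCDD, Cd22 and Bank1 (adjusted p = 0.00364 and 0.0392, limma). The other 5 were not called and went both ways, Cd79b (0.23), Pax5 (0.11) and Blk (0.06) higher with TCDD and Cd79a (−0.15) and Ms4a1 (−0.12) lower. Without vehicle replicate 2 Cd22 kept its call (adjusted p = 0.0169) and Bank1 lost it (adjusted p = 0.131), as it did without vehicle replicate 4 or any 1 TCDD array (highest adjusted p = 0.161). Of 3 gamma delta T and NKT cell markers and 13 myeloid and dendritic cell markers, 0 were called with either ligand. The part of other cells in the members' values was not tested, and in bulk samples fewer cells of a type and less RNA per cell cannot be told apart. Without vehicle replicate 2 the Cd7 difference was 1.24 with TCDD and 1.05 with Cl-BBQ, and the differences of Nkg7 were larger, as given above. The T cell markers Cd4 and Cd3e stayed between 12.29 and 13.05 on all 12 arrays, and 0 of 11 CD4 T cell markers were called. Among the vehicle arrays the mean of these 11 markers was 12.06 to 12.17, and it too was highest in replicate 2. The mean of 20 granule genes (8.19 to 8.41 on vehicle arrays) was also highest there. What raised these means on that array was not tested.

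**Figure D3:**
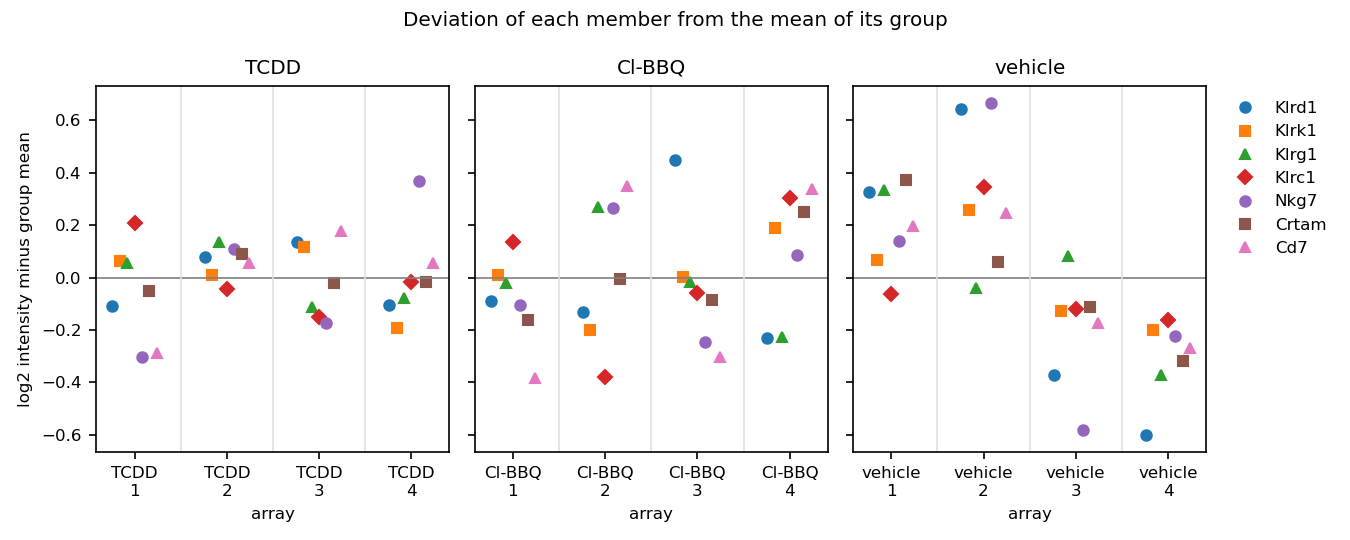
Log2 intensity of each gene minus the mean of its group, by array, for TCDD, Cl-BBQ and vehicle; symbols and colours mark the genes. On vehicle replicate 4 all 7 genes lie below 0, and on vehicle replicate 2 all but Klrg1 lie above it.

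Among the members themselves, deviations from the group means correlated positively in 18 of 21 pairs, from −0.30 to 0.75 over 12 arrays. The points share arrays and depth of signal, so these are descriptions. The closest pair was Klrk1 and Klrc1 (0.75, and 0.79 on the values themselves), receptors of the same gene cluster and both dim. Cd7 went most with Crtam (0.70) and Nkg7 (0.67) on deviations. On the values themselves Cd7 and Nkg7 correlated at 0.78 and Cd7 and Crtam at 0.06.

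Outside the list, the genes most like Cd7 over the 12 arrays were Themis2, a lymphocyte signalling protein (r = 0.99, and 0.94 on deviations), Ccr9, the chemokine receptor for the gut (0.98 and 0.96), and Sla2, an adaptor that dampens T cell receptor signalling (0.97 and 0.92). Part of these values comes from the step between treated and vehicle arrays, which the deviations leave out. Ccr9 measured 9.78, 10.25, 10.56 and 10.76 log2 units with TCDD, 8.61, 10.01, 8.97 and 10.23 with Cl-BBQ, and 7.97, 8.20, 7.07 and 7.07 with vehicle. Its Cl-BBQ arrays split as those of Cd7 did, with replicates 2 and 4 high and replicates 1 and 3 low. That split was not particular to Cd7 and Ccr9. Cd4 (12.29, 12.55, 12.34 and 12.51) and Prf1 (7.95, 8.13, 7.73 and 8.20) split the same way over a smaller range. Gzmb split the other way (12.53, 11.61, 12.20 and 11.43). Themis2 ranged from 7.58 to 7.71 with TCDD, from 7.46 to 7.73 with Cl-BBQ and from 7.21 to 7.32 with vehicle.

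For Nkg7 the most similar genes were Dpm3, a subunit of dolichol-phosphate-mannose synthase (0.95, and 0.94 on deviations), 5031425E22Rik (0.92 and 0.90) and Rassf3 (0.91 and 0.86). For Klrd1 they were Myl10, a myosin light chain (0.94 and 0.95), Draxin (0.92 and 0.90) and Ctla2a (0.86 and 0.83), and for Crtam Rpl26, a ribosomal protein (0.94 and 0.94), Abcb9 (0.91 and 0.90) and Atxn3 (0.91 and 0.91). The dim members had lower best values, 0.86 for Klrk1 (Henmt1), 0.90 for Klrg1 (Metrn) and 0.87 for Klrc1 (Olfr692). The next genes were the olfactory receptors Olfr393 (0.85) and Olfr1026 (0.84) for Klrk1, Drd2 (0.87) and Galntl5 (0.86) for Klrg1, and Tmem30c (0.87) and Chrm2 (0.86) for Klrc1. Here and for Cd7 these genes were picked as the highest of all other genes over only 12 arrays. High values follow in part from that picking, and no shared regulation is read from them.

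The wider NK receptor system was set beside the members with 6 lists. Each count of calls below stands beside the share over all genes, 1.24% with TCDD (0.873% higher), 0.196% with Cl-BBQ (0.145% higher) and 0.015% for TCDD against Cl-BBQ. Of 23 measured lectin-like receptors of the NK gene complex, relatives and neighbours of the Klr members, 0 were called with either ligand, and 17 were dim. Their median log2 difference was −0.01 with TCDD and 0.02 with Cl-BBQ. The ends of the TCDD range were Klrb1c, the NK1.1 antigen, at −0.43 (interval −0.91 to 0.05; adjusted p = 0.646) and Cd69, an early activation marker, at 0.28 (interval 0.02 to 0.54; adjusted p = 0.507). Clec2i, a ligand of Klrb1 receptors, was at −0.25 (adjusted p = 0.104), Clec2d, another such ligand, at 0.02 and Klrb1f at 0.09.

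Of 18 other receptors shared with NK cells, 2 rose and 1 fell with TCDD, 15 were not called, and 0 were called with Cl-BBQ. Over all genes 1.24% were called with TCDD and 0.196% with Cl-BBQ. Lair1, an inhibitory receptor for collagen, measured 9.36, 9.44, 9.78 and 9.49 log2 units with TCDD, against 9.02, 8.88, 8.35 and 8.62 with vehicle. It rose 1.74-fold (log2 difference 0.80, interval 0.52 to 1.08; adjusted p = 0.00404) with no overlap between the groups, as in 5.8% of all genes. With Cl-BBQ its log2 difference was 0.54 (adjusted p = 0.15). Cd96, a receptor for nectin-family ligands, averaged 11.84 ± 0.08 with TCDD and 11.49 ± 0.17 with vehicle and rose 1.27-fold (adjusted p = 0.0275), a call lost without TCDD replicate 2, 3 or 4 or vehicle replicate 1, 3 or 4 (highest adjusted p = 0.12). Cd226, an activating receptor for ligands shared with Cd96, fell by 0.32 log2 units with TCDD (10.15 ± 0.10 against 10.47 ± 0.10 with vehicle; adjusted p = 0.0476), a call that held only without vehicle replicate 3 among the 8 fits that leave out an array (highest adjusted p = 0.149).

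The adaptors of Klrk1 were not called. Hcst, which encodes DAP10, was at 10.12 ± 0.28 with TCDD and 10.08 ± 0.24 with vehicle, and Tyrobp, which encodes DAP12, at 7.33 ± 0.14 with TCDD and 7.34 ± 0.18 with vehicle (adjusted p = 0.986 and 0.994). Of 22 adaptor and signalling genes, Plcg2 alone was called, and with TCDD alone of the 3 comparisons. Plcg2, a phospholipase of NK and B cell receptor signalling, rose 1.53-fold, with 7.57, 7.80, 7.75 and 7.79 log2 units with TCDD and 7.22, 7.10, 7.06 and 7.07 with vehicle (interval of the log2 difference 0.46 to 0.77; adjusted p = 0.000275). With Cl-BBQ its log2 difference was 0.36 (interval 0.21 to 0.52) and did not pass the test (adjusted p = 0.0634, limma). Its groups did not overlap there, as in 3.85% of all genes. Plcg2 was not called between the ligands, so its call with TCDD does not show a difference between them.

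Of 10 measured ligand genes of the members, Lgals1 rose with TCDD and 9 were not called. Lgals1 encodes galectin-1, a lectin known from human T cells to bind CD7. It averaged 12.99 ± 0.10 with TCDD and 12.71 ± 0.03 with vehicle, 1.21-fold higher (adjusted p = 0.00222), and 0 ligand genes were called with Cl-BBQ. Lgals1 measured 12.85 to 13.08 on TCDD arrays, 12.84 to 12.98 on Cl-BBQ arrays and 12.67 to 12.74 on vehicle arrays, so each treated array lay above each vehicle array, where 5.8% of all genes with TCDD and 3.85% with Cl-BBQ had no overlap. Its log2 difference with Cl-BBQ was 0.21 (adjusted p = 0.0794).

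Of 16 transcription factors of NK and effector T cells, 5 rose with TCDD (Prdm1, Runx3, Id2, Nfil3 and Gata3) and 1, Eomes, fell. With Cl-BBQ 0 were called, and over all genes 1.24% and 0.196% were called. The Cl-BBQ differences had the same signs, at 0.70 for Prdm1, 0.26 for Runx3, 0.39 for Id2, 0.22 for Nfil3, 0.24 for Gata3 and −0.49 for Eomes. In TCDD against Cl-BBQ 0 of the 16 were called, so these calls do not show a difference between the ligands. Runx3, which drives cytotoxic programmes in T cells, averaged 10.45 ± 0.04 with TCDD and 10.06 ± 0.09 with vehicle (1.32-fold; adjusted p = 0.00165). Eomes, the T-box factor of NK and memory cells, averaged 7.15 ± 0.21 with TCDD and 7.80 ± 0.28 with vehicle (adjusted p = 0.018), a call lost without TCDD replicate 3 or 4 or vehicle replicate 1 or 2 (highest adjusted p = 0.0988). The call of Id2 was lost in 6 of the 8 fits that leave out an array, all but those without TCDD replicate 1 or vehicle replicate 2 (highest adjusted p = 0.143). That of Gata3 was lost without TCDD replicate 2, 3 or 4 or vehicle replicate 1 or 3 (highest adjusted p = 0.0917), and that of Nfil3 without TCDD replicate 3 or 4 or vehicle replicate 1 or 4 (highest adjusted p = 0.0836). Those of Prdm1 and Runx3 held in all 8.

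Of 20 granule genes other than Nkg7, 3 rose with TCDD and 2 with Cl-BBQ, while 17 and 18 were not called. Over all genes 0.873% were called higher with TCDD and 0.145% with Cl-BBQ. Gzma was 5.32-fold higher with TCDD (adjusted p = 3.6e-05) and 2.89-fold higher with Cl-BBQ (adjusted p = 0.0135), and Gzmb 3.29-fold and 2.52-fold (adjusted p = 0.00115 and 0.0385). Prf1, perforin, rose 1.37-fold with TCDD (adjusted p = 0.0307), a call lost in all fits that leave out an array but those without TCDD replicate 1 or vehicle replicate 2 (highest adjusted p = 0.119). With Cl-BBQ it was 1.34-fold higher and not called (adjusted p = 0.118). With Cl-BBQ the call of Gzma was lost without Cl-BBQ replicate 2 or vehicle replicate 4 (highest adjusted p = 0.0548) and when each probe set was tested separately (adjusted p = 0.132). That of Gzmb was lost without Cl-BBQ replicate 2 or 3 or vehicle replicate 1, 3 or 4 (highest adjusted p = 0.139), and under median centring, without the intensity trend, in a fit of the 2 groups alone and with every probe set on its own (adjusted p = 0.0524, 0.0624, 0.104 and 0.245). Nkg7, the granule membrane member, was 1.45-fold higher with each ligand and not called. The difference between these genes was not tested.

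**Figure D4:**
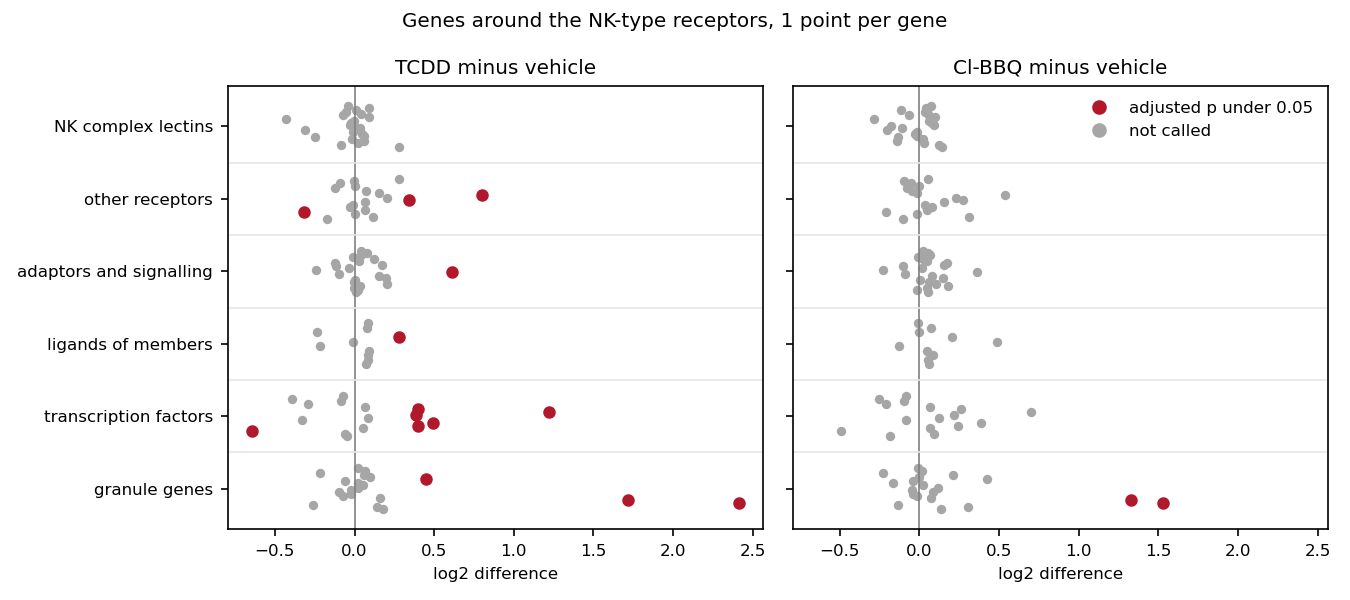
Log2 difference of each measured gene of 6 lists, TCDD minus vehicle and Cl-BBQ minus vehicle, with genes called at an adjusted p under 0.05 in red and the others in grey. Called genes lie in 5 of the 6 lists with TCDD and in the granule genes with Cl-BBQ, and 0 of 23 lectin-like receptors of the NK complex are called in either panel.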

How the data were processed

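The authors deposited log2 intensities per probe set from robust multi-array average (RMA) processing, per the submitters' processing notes; neither its version nor the set of arrays it ran on is stated there. Values spanned 2.49 to 14.2, which fits a log2 scale. Of 35556 probe sets, 21789 carried 1 gene symbol in the platform table, 1621 several and 12146 were not listed, and the brightest probe set per gene gave 19938 genes. All 7 members had 1 probe set each. One limma 3.58.1 model (R 4.3.3) held all 3 groups, with an intensity trend and no block, two-sided, with Benjamini-Hochberg adjustment over all genes and calls at 0.05. The fit was tested on simulated data with independent noise for each gene and array. Some arrays of these data deviated together, so that run checks the code only and says nothing about power here. Intervals are at the 95% level. The number of arrays limits the precision.

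Members and lists were chosen with earlier results of these data known. The text names all members, called list genes, up to 4 members of lists without calls and the 3 genes most like each member; Hcst, Tyrobp, Klrb1c, Cd4, Cd3e and the marker genes named outside calls were chosen after their values were seen. Same-numbered TCDD and Cl-BBQ arrays deviated together, with correlations over 0.1 in all 4 pairs (0.113 to 0.606). Some differently numbered arrays did so as well, TCDD replicate 4 with Cl-BBQ replicate 2 (0.419) and TCDD replicate 2 with Cl-BBQ replicate 4 (0.243). Whether the numbers pair the arrays was therefore not settled. Correlations were over 0.1 in 2 of 4 pairs for TCDD and vehicle (−0.070 to 0.182) and in 0 of 4 for Cl-BBQ and vehicle (−0.134 to 0.0871). Alternatives were quantile normalization, median centring, array weights, no trend, the 2 groups alone, all probe sets, probe set means, a filter on dim genes, the block and each array left out. Figures used matplotlib 3.10.9.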

Additional observations from a re-analysis of the deposited data

How the results depend on the processing

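The count of NK-type genes called stayed at 0 of 6 in each comparison under all 17 alternatives (0 of 3 under the filter on dim genes, which removed Klrk1, Klrg1 and Klrc1), so leaving out each array in turn gave a range of 0 to 0. With the replicate number as a block 0 NK-type genes were called, also for TCDD against Cl-BBQ, where same-numbered arrays deviated together. The block changed none of their calls, and whether the numbers pair the arrays was not settled. Nkg7, TCDD against Cl-BBQ, was −0.00256 after quantile normalization and ran from −0.12 to 0.10 with an array left out. With an array left out, Klrd1 ran from −0.10 to 0.31 for TCDD against vehicle, Klrg1 from −0.20 to 0.035 and Crtam from −0.16 to 0.075 for Cl-BBQ against vehicle, and Klrc1 from −0.20 to 0.025 for TCDD against Cl-BBQ. For TCDD against vehicle, Hcst ran from −0.070 to 0.15, Tyrobp from −0.075 to 0.071 and Clec2d from −0.028 to 0.087. Klrb1c and Clec2i passed the limma threshold for TCDD against vehicle with the block (adjusted p = 0.0321 and 0.0146). Same-numbered arrays correlated over 0.1 in only 2 of 4 pairs there. Clec2i also passed after quantile normalization (adjusted p = 0.0313). Cd7, a gene chosen by its difference, kept its sign in all 51 alternative values, which is a description only. Its TCDD against Cl-BBQ difference ran from 0.065 to 0.31 with an array left out. Several called list genes lost their call. For TCDD against vehicle, median centring lost Nfil3, Gata3, Id2 and Cd226 (adjusted p 0.0536 to 0.0673), no intensity trend lost Bank1, Cd226 and Cd96 (0.0501 to 0.0674), and testing every probe set on its own lost Eomes, Cd226, Cd96, Prf1, Id2 and Bank1 (0.096 to 0.142). The cause of the changes was not tested.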
